A study of Mus musculus with 12 samples.

Results

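The cells described here are CD4 T cells of the mouse aorta, taken from 4 droplet libraries of single-cell RNA. They were chosen by the transcripts they held. A barcode was kept when it had more than 200 genes, more than 1000 unique molecular identifiers (UMIs, the tags that count single RNA molecules) and less than 10% mitochondrial UMIs. It was called a T cell when it held UMIs of at least 3 of the 6 genes Cd3d, Cd3e, Cd3g, Lat, Trac and Trbc2 and none of the B cell genes Cd79a and Ms4a1. It was called a CD4 T cell when it also held at least 1 UMI of Cd4, none of Cd8a or Cd8b1 and fewer than 3 of the 6 cytotoxic genes Ccl5, Nkg7, Gzma, Xcl1, Klrd1 and Ctsw. This gave 270 CD4 T cells among 38072 kept barcodes. Since the rule read these genes, their levels are given only as a description.

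The mice were male C57BL/6J animals labelled ApoE-/-, a genotype without the lipid carrier apolipoprotein E, and they were 8 weeks old at the start. Apoe RNA in the library labelled Healthy went against that label, as described below. Animals of the group labelled Healthy ate a normal diet and were given saline. The AS group (atherosclerosis) received a high-fat diet with 1% cholesterol and 10% fat, and saline. The MTZ-treated group received the same high-fat diet and, in the second part of the 24 weeks, methazolamide (MTZ, an inhibitor of carbonic anhydrases) at 25 mg/kg every other day for 12 weeks. The MTZ-preventive group received the high-fat diet and MTZ at that dose during all 24 weeks. The sample labels write methoxazolamide for the drug. The aortas of 6 mice were pooled for each group, which gave 1 gene expression library, 1 T cell receptor library and 1 B cell receptor library per condition. No spread between mice could therefore be measured, no test between conditions was possible, and intervals between libraries are 95% limits of the counting error alone.

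CD4 T cells read peptides held by class II major histocompatibility molecules, with Cd4 as the co-receptor. Naive and central memory cells carry Ccr7, the chemokine receptor that takes them into lymph nodes, and the transcription factors Lef1 and Tcf7. Effector memory cells have lost most of these and carry Cd44, S100a4 and related genes. Regulatory T cells are the CD4 subset set by the transcription factor Foxp3, with high Ctla4 and Il2ra, and they restrain other T cells. In the atherosclerotic aorta, helper cells that make interferon gamma are known as promoters of disease and regulatory cells as a brake on it.

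The number of CD4 T cells differed widely between the libraries. There were 203 among 12340 kept cells of the library labelled Healthy, a share of 1.65% (Clopper-Pearson 95% limits 1.43 to 1.89). The AS library held 0 of 2201 cells, which allows a share of up to 0.136% at 3 counts (Clopper-Pearson upper limit 0.167%). The MTZ-treated library held 6 of 7215, or 0.0832% (0.0305 to 0.181). The MTZ-preventive library held 61 of 16316, or 0.374% (0.286 to 0.480). The share was thus 4.40 times as high (3.29 to 5.96) in the library labelled Healthy as in the MTZ-preventive library, and 4.50 times as high (1.95 to 12.7) in the MTZ-preventive as in the MTZ-treated library. The MTZ-preventive share lay above both limits of the AS library, while the MTZ-treated share lay below them. Other lymphocytes moved with the CD4 cells. T cells as a whole made up 14.8%, 0.545%, 1.84% and 5.02% of the kept cells in the libraries labelled Healthy, AS, MTZ-treated and MTZ-preventive, and B cells 24.4%, 0.545%, 1.01% and 6.44%, so the difference was not particular to CD4 cells.

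The part that CD4 cells took of the T cells depended on the denominator. A CD8 T cell met the same rule with Cd4 at 0 and a UMI of Cd8a or Cd8b1. CD4 cells made up 25.5% (22.5 to 28.6) of the 797 CD4 and CD8 cells of the library labelled Healthy, 28.6% (11.3 to 52.2) of 21 in the MTZ-treated library and 23.8% (18.7 to 29.5) of 256 in the MTZ-preventive library, and these intervals overlapped. Of all T cells they made up 11.1% (9.74 to 12.7), 4.51% (1.67 to 9.56) and 7.45% (5.74 to 9.46), and here the limits of the library labelled Healthy did not overlap those of the others. The AS library had 12 T cells in all, of which 2 were CD8. Many T cells showed neither co-receptor, with 43.5% of 1821 T cells in the library labelled Healthy, 66.2% of 133 in the MTZ-treated and 54.7% of 819 in the MTZ-preventive library, and whether those cells belong to the CD4 lineage was not tested.

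**Figure D1:**
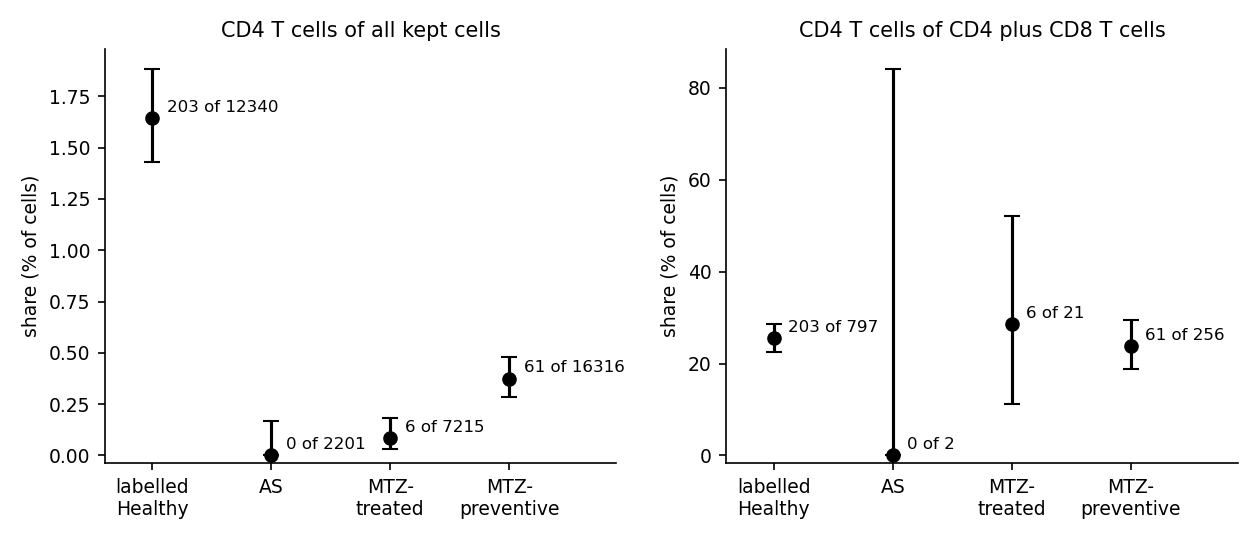
The left panel plots CD4 T cells as a percentage of all kept cells in the 4 libraries and the right panel as a percentage of CD4 plus CD8 T cells. Points are shares and bars their 95% Clopper-Pearson limits, which cover counting error only. The share of all cells ran from 0 in AS to 1.65% in the library labelled Healthy, while the share of CD4 plus CD8 cells lay between 23.8% and 28.6% in the 3 libraries with CD4 cells.

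The depth behind these cells was small outside a pair of libraries. The libraries held 42235505 (labelled Healthy), 7617682 (AS), 26196680 (MTZ-treated) and 50769911 (MTZ-preventive) UMIs in all deposited barcodes. The summed CD4 T cells had 641110 UMIs in the first of these, 13380 in the MTZ-treated and 183669 in the last, and the median member had 2998, 1624.5 and 2356 UMIs. A gene at 0 in the summed CD4 cells may reach 4.68 CPM (UMIs of the gene per 1e6 UMIs of the summed cells) in the first, 224 in the second and 16.3 in the third. Levels were therefore compared only between the library labelled Healthy and the MTZ-preventive library.

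Members near the edge of the rule were common. The Cd4 requirement was met with exactly 1 UMI by 232 members and with 2 or more by 38. Exactly 3 of the T cell genes were seen in 70 members and 4 to 6 in 200, and a further 42 barcodes with 2 of them met the rest of the rule. Of the cytotoxic genes, 217 members had none, 48 had 1 and 5 had 2, and 7 barcodes with 3 or more were left out.

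Apoe, at chr7:19696244-19701310 of GRCm38, went against the label of 1 library. It had 677 CPM in all kept cells of the library labelled Healthy against 11.4 CPM in the AS library, 12.6 CPM in the MTZ-treated library and 8.46 CPM in the MTZ-preventive library. Among CD4 T cells it had 107 UMIs in the library labelled Healthy, of which 53 were in 1 cell and 10 remained without the mixed barcodes described next. The CD4 cells of the MTZ-preventive library had 0, which allows up to 16.3 CPM at 3 counts, against 167 CPM in the library labelled Healthy, while the 0 of the 6 MTZ-treated cells allows up to 224 CPM and says nothing of a difference. Every comparison with this library, the shares above included, carries that contradiction of its label. Of the deposited barcodes, 2828 were shared by a pair of libraries, 750 of them among kept cells, and 19 CD4 T cell barcodes were also deposited in another library, where 2 were T cells and 0 were CD4 T cells.

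Some barcodes held RNA of other cells. A barcode was called mixed when it had 3 or more genes of a list for endothelial cells, fibroblasts, smooth muscle, adipocytes, myeloid cells, neutrophils or Schwann cells. This was so for 7 of the 203 CD4 cells of the library labelled Healthy, with 5.24% of their UMIs, 1 of 6 in the MTZ-treated library and 7 of 61 in the MTZ-preventive library, with 23.3% of the UMIs. In the MTZ-preventive library the 6 endothelial genes summed to 1829 CPM in CD4 cells against 193 in the library labelled Healthy, led by Fabp4 with 287 and 61 UMIs, and the 6 adipocyte genes to 218 against 1.56 CPM, led by Cfd. The 6 fibroblast genes had 1470 and 1022 CPM, with Pdgfra at 0 in the library labelled Healthy, and the 8 myeloid genes 16.3 and 60.8 CPM, with Csf1r at 0 in both. The 5 red blood cell genes were at 0. Counts of genes are therefore given with and without the mixed barcodes, and so are genes whose result changed.

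The label was checked against its markers. Cd4, at chr6:124864693-124888247 and part of the rule, had 384 CPM in the library labelled Healthy, 448 in the MTZ-treated and 370 in the MTZ-preventive library, and no more than 0.300% of fibroblasts had a UMI in these libraries. Il7r, the receptor for the survival cytokine interleukin 7, was not part of the rule. It had 184 CPM (152 to 220), 149 (18.1 to 540) and 163 CPM (110 to 233), with a UMI in 77 of 203, 2 of 6 and 20 of 61 cells, against 1.42%, 0.918% and 1.73% of fibroblasts. Cd3d, which the rule read, was seen in 177, 5 and 53 cells. Foxp3, at chrX:7579676-7595243, marks only the regulatory subset and was seen in 4 of 203, 0 of 6 and 3 of 61 cells. Il7r, the marker of T cells that the rule did not read, was thus well above its share in fibroblasts in each library that held CD4 cells. Those fibroblasts were chosen without a UMI of the T cell genes. Il7r does not tell CD4 from CD8 cells, and 8 of 15 CD8 cells of the MTZ-treated library had it. The CD4 part of the label therefore rests on the co-receptor genes of the rule.

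The CD4 cells were next set against the CD8 cells of the same library, which asks what beyond the co-receptors set them apart. Counts were summed per library and class in the 2 libraries with at least 20 cells of both, the library labelled Healthy (203 and 594 cells) and MTZ-preventive (61 and 195), and tested with edgeR's quasi-likelihood test with the library as a block. The genes of the rule were left out. Of 5814 genes tested, 113 were higher in CD4 cells (1.94%) and 188 lower (3.23%) at a Benjamini-Hochberg adjusted p under 0.05. With 2 libraries, 1 degree of freedom was left for each gene, so these p-values rest on a spread shared across genes. Without the mixed barcodes, 85 of 4772 genes were higher (1.78%) and 109 lower (2.28%), and 138 genes were called in both fits. DESeq2 called 5 higher and 45 lower on the same sums, and edgeR without the library block 1 and 5. Without the barcodes called doublets, 29 of 5360 genes were higher and 40 lower, and 67 were also called in the main fit. The calls of single genes below are not given without doublets.

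Genes of help and co-stimulation were higher in CD4 cells. Of the 8 listed helper genes, 7 passed the filter on low counts, and all 7 were called higher with a median log2 fold change of 1.31 against −0.01 over all genes tested. Of all genes tested, 1.94% were called higher. A gene could pass the filter on its level in CD4 cells alone, as Cd40lg and Tnfrsf4 did. The count of 7 and the list median were therefore partly set by the filter and are a description. These 7 calls were edgeR's with the library block. DESeq2 called 0 of the 7 and gave 4 of them no adjusted p, and edgeR without the block called Tnfrsf4 alone. Cd40lg, at chrX:57212143-57224042, the ligand through which helper T cells license B cells and macrophages, had 49.9 CPM in CD4 and 4.22 in CD8 cells of the library labelled Healthy, and 131 and 4.69 CPM in the MTZ-preventive library. Its UMIs lay in 22 and 12 CD4 cells and in 4 and 2 CD8 cells, and the log2 fold change was 3.76 (SE 0.468, edgeR adjusted p = 2.35e-13). Tnfrsf4, the co-stimulatory receptor OX40, had 57.7 and 59.9 CPM in CD4 cells against 1.41 and 3.12 in CD8 cells, a log2 fold change of 4.71 (SE 0.535, edgeR adjusted p = 5.15e-16). The CD4 level lay well above the CD8 level in both libraries for each gene.

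Smaller differences of the same direction were seen for Cd28, the receptor of the second activation signal, for Icos, its inducible relative, and for Cd5 and Cd6, which tune receptor signalling. Cd28 had 179 and 299 CPM in CD4 cells against 63.8 and 117 in CD8 cells, a log2 fold change of 1.22 (SE 0.213, edgeR adjusted p = 8.77e-07). Those of Icos, Cd5 and Cd6 were 1.87, 1.31 and 1.06. Gata3, a transcription factor of the helper lineage, had a log2 fold change of 1.14 that was called (edgeR adjusted p = 0.0412) but not without the mixed barcodes (edgeR adjusted p = 0.143), and the other 6 were called in both.

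Of 16 listed regulatory T genes, 9 passed the filter and 8 were called higher in CD4 cells, with and without the mixed barcodes. Over all genes tested, 1.94% were called higher, and 1.78% without the mixed barcodes. The median log2 fold change of the 9 was 2.93 against −0.01 over all genes, and 2.81 against 0.003 without the mixed barcodes. Foxp3 and Il2ra were among the 7 too low to be tested. A gene could enter through the CD4 cells alone, as Areg and Tnfrsf4 did. The count of 8 and the list median were therefore partly set by the filter and are a description. Izumo1r, a member of the folate receptor family at chr9:14885814-14903951, had 195 CPM in CD4 and 21.1 in CD8 cells of the library labelled Healthy and 305 and 37.5 CPM in the MTZ-preventive library. Its log2 fold change was 2.93 (SE 0.229, edgeR adjusted p = 3.69e-34). Ctla4, the inhibitory receptor that competes with Cd28 for its ligands, had 98.3 and 191 CPM in CD4 cells against 7.51 and 23.4 in CD8 cells, a log2 fold change of 3.18 (SE 0.316, edgeR adjusted p = 5.42e-21). Areg, a ligand of the epidermal growth factor receptor, was higher with 20 UMIs in 8 cells and 7 in 5 cells against 3 and 1 UMIs in CD8 cells. Il10, an anti-inflammatory cytokine, was called from 12 UMIs in 3 CD4 cells of the library labelled Healthy and 3 UMIs in 2 of the MTZ-preventive library, where 195 CD8 cells had 4. Ikzf2, a transcription factor of regulatory cells, and Nrp1 and Capg were the other genes called, with log2 fold changes of 1.89, 1.85 and 1.11. Tnfrsf18 had 79.5 and 59.9 CPM against 33.8 and 40.6, a log2 fold change of 0.84 that was not called (edgeR adjusted p = 0.0754). Most of these calls were edgeR's with the library block alone. Of the 8 regulatory genes DESeq2 called Ctla4 and Izumo1r, did not call Capg and gave 5 no adjusted p. Of the 7 helper genes above it called 0, did not call 3 and gave 4 no adjusted p. Without the block, edgeR called Tnfrsf4, which is on both lists, and none of the others.

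**Figure D2:**
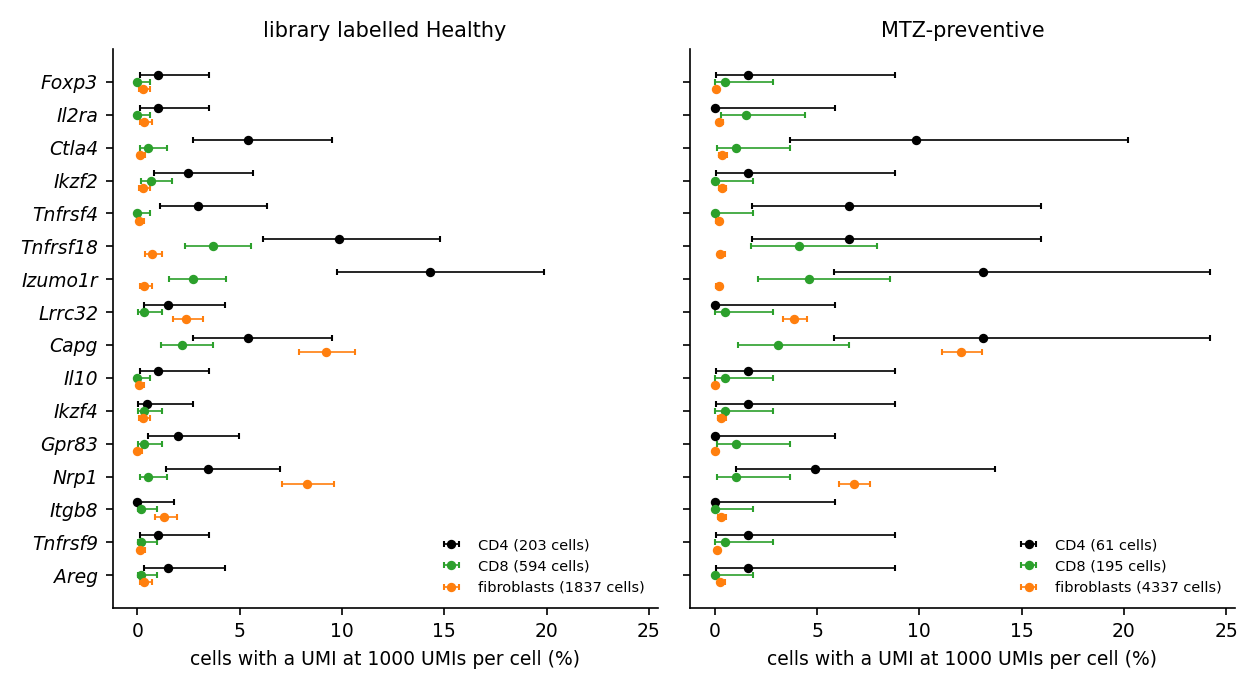
The panels plot, for the 16 listed regulatory T genes, the percentage of CD4 T cells, CD8 T cells and fibroblasts with a UMI after each cell was thinned to 1000 UMIs, with 95% Clopper-Pearson limits. Ctla4 and Izumo1r stood in more CD4 cells (5.42% and 14.3% in the library labelled Healthy, 9.84% and 13.1% in MTZ-preventive) than CD8 cells, whereas Nrp1 and Lrrc32 were seen in a larger share of fibroblasts than of CD4 cells in both libraries.

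Foxp3 itself was rare. It was seen in 4 of 203 CD4 cells of the library labelled Healthy (1.97%, limits 0.539 to 4.97), 0 of 6 in the MTZ-treated library and 3 of 61 in the MTZ-preventive library (4.92%, 1.03 to 13.7). These shares rest on members with exactly 1 Cd4 UMI, which 232 of the 270 members had. Of the 40 MTZ-preventive members with at least 4 T cell genes, 0 had Foxp3. With 2 or more Cd4 UMIs it was seen in 0 of 31 and 0 of 7 members of the first and last libraries. Such groups are small, and 0 in them says little of the share. In fibroblasts, which should lack it, a UMI was seen in 8 of 1837 (0.435%) and 8 of 4337 (0.184%) cells of the first and last libraries, at median depths of 2421 and 1891 UMIs against 2998 and 2356 in CD4 cells. Thinned to 1000 UMIs per cell, the CD4 shares were 0.985% (0.120 to 3.51) and 1.64% (0.0415 to 8.80), each a level of 1 or 2 cells, and no order between the libraries was read from them. T cells with neither co-receptor had Foxp3 in 16 of 793 (2.02%, 1.16 to 3.26) and 6 of 448 (1.34%, 0.493 to 2.89), within the limits of the CD4 shares of the same libraries, and CD8 cells in 3 of 594 and 1 of 195.

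The Foxp3 cells carried other genes of the regulatory programme. All 4 cells of the library labelled Healthy and all 3 of the MTZ-preventive library had a UMI of at least 1 of Il2ra, Ctla4, Ikzf2, Tnfrsf4, Tnfrsf18 and Izumo1r. So had 12 of 16 and 5 of 6 Foxp3 cells with neither co-receptor, and 2 of 3 and 1 of 1 Foxp3 CD8 cells. Among all CD4 cells, at least 1 of the 16 listed regulatory T genes was seen in 48.8% and 73.8% at full depth. In the library labelled Healthy, Ikzf2 was seen in all 4 Foxp3 CD4 cells and Ctla4, Tnfrsf4 and Izumo1r in 3 each. Ctla4 was seen in 2 of the 3 Foxp3 CD4 cells of the MTZ-preventive library. At least 2 of these 6 genes were seen in 27 of 203 CD4 cells (13.3%, 8.95 to 18.8) and 14 of 61 (23.0%, 13.2 to 35.5), against 2.19% and 5.64% of CD8 cells and 8.32% and 10.7% of T cells with neither co-receptor. Most of these CD4 cells, 23 and 12, had no Foxp3 UMI.

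Other genes called higher with large folds were St8sia6, a sialyltransferase, Ccr8, a chemokine receptor, Tbc1d4, a Rab GTPase-activating protein, and, without the mixed barcodes, Tnfsf11, the cytokine RANKL, and Stk39, a kinase. St8sia6 had 28 UMIs in 24 CD4 cells and 4 UMIs in 4 cells, against 5 and 1 UMIs in CD8 cells. Ccr8 had 16 UMIs in 13 cells and 4 in 3 cells, against 2 and 3. Tbc1d4 had 28.1 and 76.2 CPM in CD4 cells against 3.29 and 3.12 in CD8 cells, a log2 fold change of 3.34 (SE 0.483, edgeR adjusted p = 7.78e-10). Ccl8 and Mfap4 were also among the 10 largest, but fell below the filter once mixed barcodes were left out. Rora, a nuclear receptor of interleukin 17 producing cells, was higher by 1.57 on the log2 scale (edgeR adjusted p = 0.000106), with 48.4 and 158 CPM against 15.5 and 40.6.

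Among genes lower in CD4 cells, Ly6c2 and Plac8 gave the clearest differences. Ly6c2, a lipid-anchored surface protein coded at chr15:75108161-75112066, had 56.2 and 21.8 CPM in CD4 cells against 741 and 434 in CD8 cells, a log2 fold change of −4.03 (SE 0.257, edgeR adjusted p = 3.72e-51), and was seen in 9 of 203 and 3 of 61 CD4 cells against 325 of 594 and 90 of 195 CD8 cells. Plac8 had 7.80 and 27.2 CPM against 248 and 122 (log2 fold change −4.23). Adgrg5, an adhesion receptor, was at 0 UMIs in the CD4 cells of both libraries and at 88 and 13 UMIs in CD8 cells, at least 8.83-fold lower in CD4 cells of the library labelled Healthy and at least 1.24-fold lower in those of the MTZ-preventive library against a floor of 3 counts per library. Cd7, a receptor of T and natural killer cells, had 10.9 and 5.44 CPM against 57.3 and 48.4 (log2 fold change −2.69). Bend4, Tmem108, Inf2, Uap1, Rras2 and Racgap1 were called lower in both fits.

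A second group of lower genes moved with the mixed barcodes. The 6 smooth muscle genes were all called lower in CD4 cells, and they summed to 151 and 267 CPM in CD4 cells against 2273 and 1931 in CD8 cells, of which 10.3% and 15.9% were mixed barcodes, compared with 3.45% and 11.5% of CD4 cells. Acta2, the smooth muscle actin, had a log2 fold change of −4.06 over all cells and −0.59 without the mixed barcodes (edgeR adjusted p = 0.426). Without them, 3 of the 6 were still tested and 0 were called (682 genes of all tested had an unadjusted p under 0.05). The smooth muscle list is among those that define a mixed barcode, so this change is partly set by the definition. Cnn1, Myh11, Ccn3, Itga8, Palld and Rgs5, which stood among the 10 largest decreases, fell below the filter.

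The effector memory list turned with the same step. Over all cells, 0 of its 10 tested genes were called higher and 3 lower (Anxa2, Crip1 and S100a6), with a median log2 fold change of −0.43. Without the mixed barcodes 4 were called higher (Cd44, Lgals1, S100a4 and S100a6) and 1 lower (Cd69), with a median of 0.94. Of all genes tested, 1.94% were called higher and 3.23% lower over all cells, and 1.78% and 2.28% without the mixed barcodes. The median over all genes without the mixed barcodes was 0.003. S100a6, a calcium-binding protein, went from −0.98 to 1.04 (edgeR adjusted p = 0.000382). Without mixed barcodes it had 90.5 and 248 CPM in CD4 against 23.1 and 153 in CD8 cells. S100a4 had 60.9 and 149 CPM against 7.69 and 58.8, and Cd44, the hyaluronan receptor of memory cells, 26.3 and 85.1 against 4.94 and 17.4.

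The naive list did not separate the classes, with 0 of 10 genes higher and Dapl1 lower (log2 fold change −1.31, edgeR adjusted p = 6.17e-06), and without the mixed barcodes Klf2, a transcription factor of quiescent T cells, was lower as well. Of 8 CD8 lineage genes 3 were tested, and Cd7 was called lower. Of 16 T cell receptor signalling genes, Cd28, Cd5, Cd6 and Fyn were called higher and none lower, and Fyn was not called without the mixed barcodes. Of 17 immediate early genes, Nr4a1 and Rel were called higher and Fos and Jun lower, while without the mixed barcodes Rel was higher and 5 genes were lower (Cd69, Fos, Ier2, Jun and Zfp36), with Nr4a1 at an edgeR adjusted p of 0.0701. Of the interferon list, Ifi27l2a was called higher over all cells alone (adjusted p = 0.0682 by edgeR without the mixed barcodes, where Bst2 was called lower). The integrins Itga4 and Itgal of the homing list were called higher in both fits, and of 10 heat shock genes 0 were called over all cells and Dnajb1 was lower without the mixed barcodes. No gene of the Th1 or gamma chain receptor lists was called in either direction, and none of the innate-like list passed the filter.

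**Figure D3:**
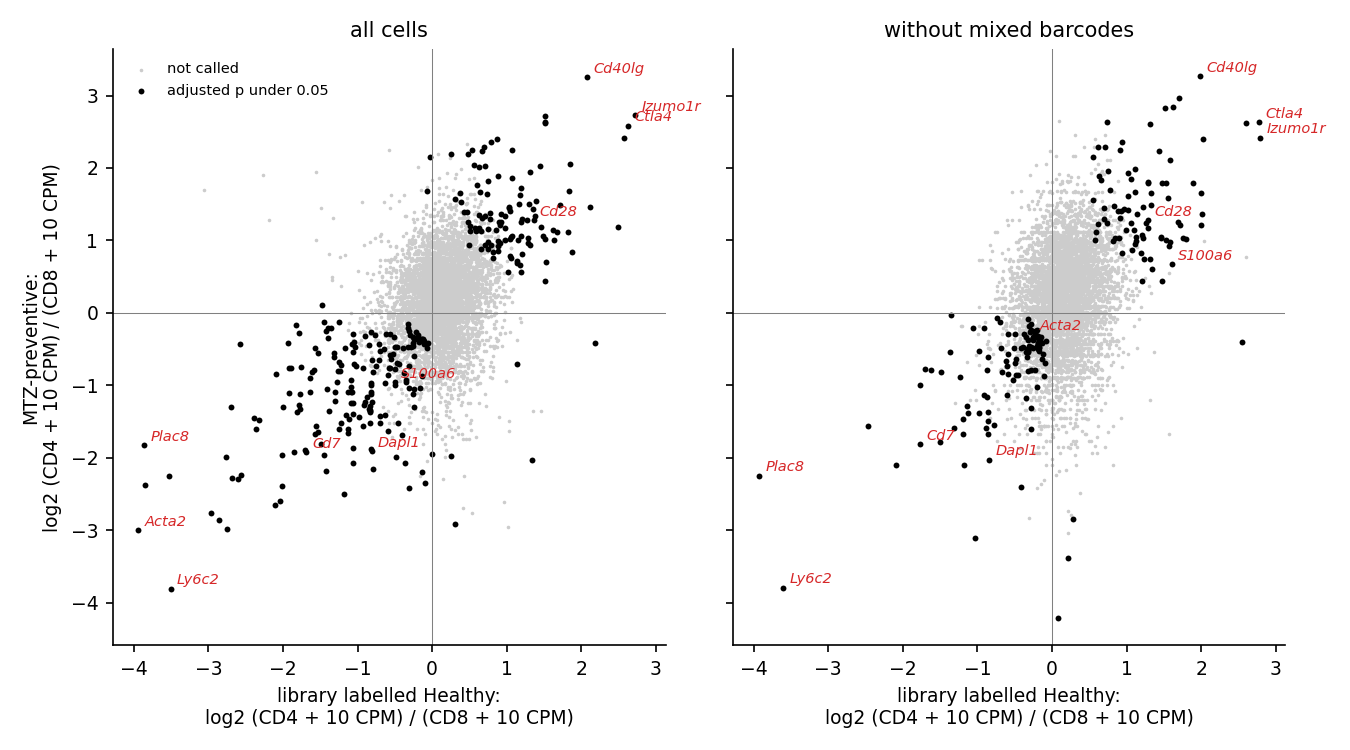
Each point is a gene, placed by the log2 ratio of its level in CD4 over CD8 T cells, after 10 CPM were added to both, in the library labelled Healthy (horizontal) and in MTZ-preventive (vertical), with all cells on the left and without mixed barcodes on the right. Black points had an adjusted p under 0.05 by edgeR. Cd40lg, Izumo1r and Ctla4 lay at the upper right and Ly6c2 and Plac8 at the lower left of both panels, whereas Acta2 moved from the lower left to near 0.

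Within CD4 cells, the MTZ-preventive library was then set against the library labelled Healthy, which asks how the cells differed between a high-fat diet with MTZ and a normal diet. Both diet and drug differ between these libraries, as does the Apoe level, and they cannot be told apart. A level of 100 CPM or more in one library or both was reached by 1345 genes, of which 140 (10.4%) differed by more than 2-fold, 103 (7.66%) higher and 37 (2.75%) lower in the MTZ-preventive library, after 10 CPM were added to both. Without the mixed barcodes 114 of 1295 genes differed (8.80%), 72 higher (5.56%) and 42 lower (3.24%). The median log2 ratio of all genes was 0.16, and −0.17 with TMM factors, which gave 70 higher and 94 lower genes, so the split between the directions depends on the scaling. Nothing here has a replicate.

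Some genes of naive and central memory cells were lower in the MTZ-preventive CD4 cells. Lef1, at chr3:131110297-131224357, had 137 UMIs in 87 of 203 cells of the library labelled Healthy and 7 UMIs in 7 of 61 cells of the MTZ-preventive library, 214 against 38.1 CPM, a ratio of 0.178 (0.0704 to 0.377). Dapl1 had 67 UMIs in 39 cells and 4 in 3 cells. The 6 MTZ-treated cells had 0 UMIs of Dapl1 and 3 of Lef1 in 2 cells. Thinned to 1000 UMIs per cell, Lef1 stood in 19.7% (14.5 to 25.9) of the first cells and 1.64% (0.0415 to 8.80) of the second. Fibroblasts had it at 1.52% and 0.277% at this depth, and the thinned MTZ-preventive value is the level of 1 cell.

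The naive list did not move together. Of its 10 genes, Lef1 and Dapl1 were among those past 2-fold lower, S1pr1 was past 2-fold higher, and the median log2 ratio was −0.40 against 0.16 over all genes. Ccr7 had 156 and 180 CPM in the library labelled Healthy and the MTZ-preventive library, with overlapping limits (127 to 190 and 124 to 252), and Il7r 184 and 163. S1pr1, the receptor by which T cells leave lymphoid tissue, had 27 UMIs in 22 cells and 22 UMIs in 13 cells, 42.1 against 120 CPM. Thinned to 1000 UMIs, Ccr7 stood in 11.8% (7.72 to 17.1) and 9.84% (3.70 to 20.2) of the cells, against 4.14% and 2.26% of fibroblasts, and the limits of the CD4 shares overlapped.

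Some effector memory genes were higher. Of 14 listed, 9 passed the level limit. Of these, 5 were past 2-fold higher (Ahnak, Anxa2, Lgals1, S100a4 and S100a6), against 7.66% of all genes tested, and the other 4 were not past 2-fold. The median log2 ratio of the 9 was 1.12 against 0.16 over all genes. A gene could pass the level limit in a single library. Anxa2 did so, with 15.6 CPM in the library labelled Healthy and 158 in MTZ-preventive. The count of 5 and the median were therefore partly set by the limit and are a description. The same 5 genes were past 2-fold without the mixed barcodes, where 8 were tested, and 4 of 8 with TMM factors, which left S100a4 out. Without the mixed barcodes, Fabp4 and Tagln were also past 2-fold higher, with log2 ratios of 1.88 and 1.10. They were the only endothelial and smooth muscle genes tested there, and 0 of the 6 fibroblast genes reached the level limit. Those lists also define a mixed barcode, so the low numbers are partly set by leaving such barcodes out. Anxa2, a membrane-binding annexin, had 10 UMIs in 8 cells of the library labelled Healthy and 29 in 14 cells of the MTZ-preventive library, a ratio of 10.1 (4.80 to 23.3). Lgals1, the lectin galectin 1, had 125 UMIs in 64 cells and 174 in 31 cells, 195 against 947 CPM, a ratio of 4.86 (3.84 to 6.16), and 3.83 without the mixed barcodes. S100a6 had 71 and 110 UMIs, 111 against 599 CPM. These are also abundant fibroblast genes. At 1000 UMIs per cell, Lgals1 stood in 81.7% and 71.1% of fibroblasts, S100a6 in 82.5% and 83.8% and Anxa2 in 37.6% and 39.8%, and the part of free fibroblast RNA in their level in CD4 cells was not tested. Cd44 had 16 UMIs in 14 cells and 17 UMIs in 12 cells. The 6 MTZ-treated cells had 22 UMIs of Lgals1 in 3 cells and 56 of S100a6 in 2 cells.

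Counted per cell at 1000 UMIs, CD4 cells of the library labelled Healthy held 1.72 ± 1.38 (SD, 203 cells) of the 10 naive genes and 1.17 ± 1.20 of the 14 effector memory genes, and those of the MTZ-preventive library 1.46 ± 1.09 and 1.80 ± 1.66 (61 cells). Genes of both lists were seen together in 52.7% (45.6 to 59.7) and 50.8% (37.7 to 63.9) of the cells, so most cells could not be put to one side. The 6 MTZ-treated cells held 2.17 ± 1.47 and 3.33 ± 3.72 (SD, 6 cells), with a median of 2 effector memory genes and 10 of them in 1 cell.

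**Figure D4:**
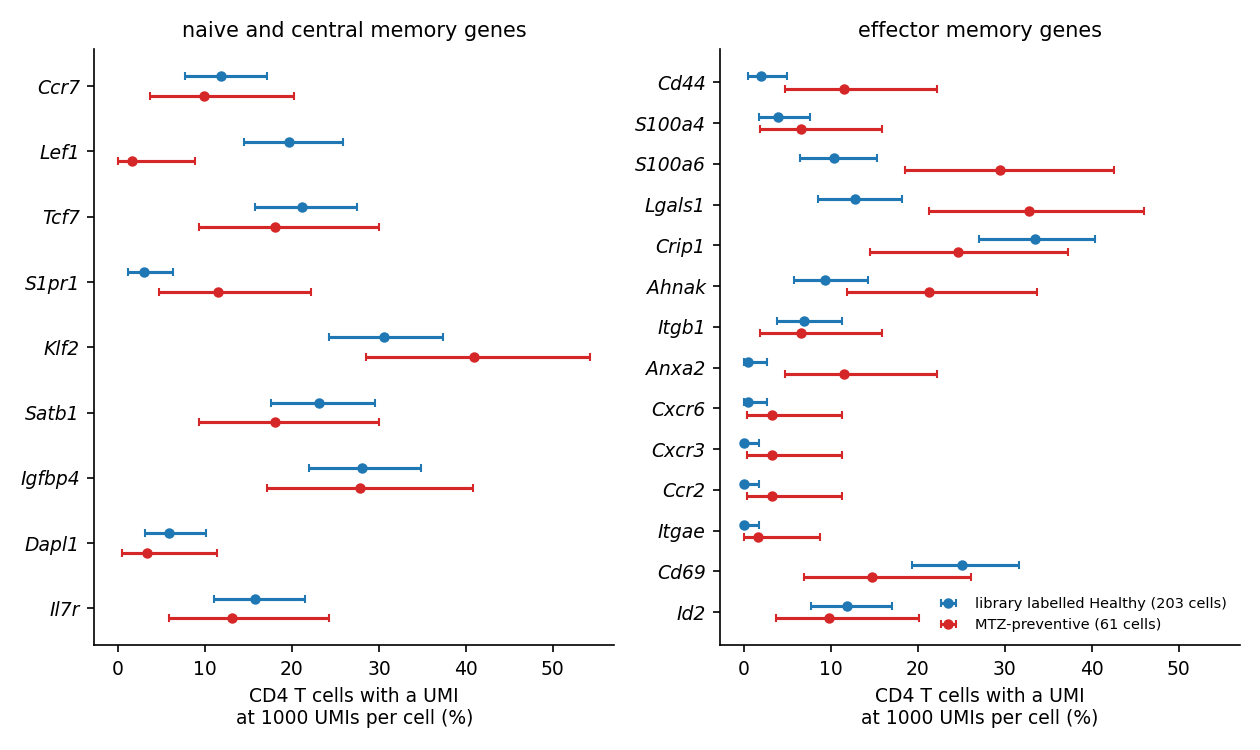
The panels plot the percentage of CD4 T cells with a UMI of naive and central memory genes (left) and effector memory genes (right) after thinning to 1000 UMIs per cell, for the library labelled Healthy (blue, 203 cells) and MTZ-preventive (red, 61 cells), with 95% Clopper-Pearson limits. Lef1 stood at 19.7% and 1.64%, while Lgals1 stood at 12.8% and 32.8% and S100a6 at 10.3% and 29.5%.

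Bhlhe40, a transcription factor of cytokine-producing T cells at chr6:108660629-108666925, was higher. It had 92 UMIs in 28 of 203 cells and 105 in 31 of 61 cells, 144 against 572 CPM, a ratio of 3.98 (2.98 to 5.33), and 4.51 without the mixed barcodes. Fibroblasts carried it in 19.7% and 25.6% of cells at 1000 UMIs, against 7.88% and 32.8% of CD4 cells. Dusp4, a phosphatase of the MAP kinase pathway, had 18 UMIs in 12 cells and 29 in 14 cells, a ratio of 5.62 (3.02 to 10.8), and stood in 3 of 203 and 11 of 61 CD4 cells at 1000 UMIs, against 1.14% and 1.41% of fibroblasts. Cd40lg had 32 and 24 UMIs, 49.9 against 131 CPM, and Rora 31 and 29 UMIs, 48.4 against 158 CPM. Ctla4 had 63 and 35 UMIs, 98.3 against 191 CPM, which was past 2-fold without the mixed barcodes but not over all cells. Capg was past 2-fold in both. Il2rb, a chain of the interleukin 2 receptor, had 99.8 against 218 CPM, a log2 ratio of 1.05 that was 0.81 with TMM factors and 0.99 with totals free of mitochondrial, ribosomal and hemoglobin genes, so it did not stay past 2-fold. At least 1 of the 16 regulatory T genes was seen in 48.8% (41.7 to 55.9) and 73.8% (60.9 to 84.2) of CD4 cells at full depth, against 24.9% and 30.3% of CD8 cells and 48.5% and 43.8% of fibroblasts, so the share of the library labelled Healthy lay within the limits of that in fibroblasts (46.2 to 50.8). Without the mixed barcodes the CD4 shares were 46.9% and 70.4%. At 1000 UMIs per cell they were 30.5% (24.3 to 37.4) and 41.0% (28.6 to 54.3), whose limits overlapped, against 21.9% and 23.1% of fibroblasts.

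Mt1, a metal-binding metallothionein, was seen in 10 of 203 and 33 of 61 CD4 cells, with 37.4 against 474 CPM. CD8 cells had it in 7.74% and 50.8% of cells and fibroblasts in 69.5% and 96.4%, higher in the MTZ-preventive library in each of these classes. Vim, the intermediate filament vimentin, had 321 against 1312 CPM, with a UMI in 95.6% and 97.6% of fibroblasts. Tmem176a, a membrane protein, had 8 UMIs and 29 UMIs.

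Several of the largest ratios came from a few barcodes. Ccl21a had 79 UMIs in 1 MTZ-preventive cell, a mixed barcode, and 0 in the other 60. Sfrp4 had 87 of its 90 UMIs and Cxcl13 48 of 52 in 1 cell each. Fabp4 had 237 of 287 in 1 cell, but was not confined to it. Without the mixed barcodes it had 43 UMIs in 17 cells against 46 in 11 of the library labelled Healthy. That ratio was 4.03 (2.60 to 6.24), and the log2 ratio was 2.02 in CD8 cells and 1.93 in cells with neither co-receptor. Apod, C3 and Gpx3 had 0, 1 and 3 UMIs left without the mixed barcodes. Cfd was spread over 12 cells, and 10 of its 26 UMIs, in 9 cells, were left. CD4 cells of the library labelled Healthy had 0 UMIs of Cfd. Without mixed barcodes its log2 ratio was 3.82 in CD8 cells and 3.97 in cells with neither co-receptor. Among lower genes, 147 of the 156 UMIs of Eln, which codes for elastin, were in 1 cell of the library labelled Healthy.

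Lower genes outside the naive list included Pdk1, a kinase of glucose metabolism, with 74 UMIs in 63 cells and 3 in 3 cells, and Ctss, the protease cathepsin S, with 73 UMIs in 59 cells and 4 in 4 cells. Of the interferon list, 6 genes were tested, and Ly6a was past 2-fold higher and 1 gene lower. Of all genes tested, 7.66% were higher and 2.75% lower. The median log2 ratio of the 6 was −0.60 against 0.16 over all genes. Without the mixed barcodes 7 were tested and 0 were past 2-fold higher, Bst2, Ifi27l2a and Zbp1 were among those lower, and the median log2 ratio was −1.27. Ifi27l2a went from 1278 UMIs to 191 UMIs, 1993 against 1040 CPM. Among heat shock genes Hspa1a and Hspa1b were past 2-fold lower and the other 8 were not, and Hspa1b had 719 against 250 CPM. None of the 14 T cell receptor signalling genes tested and none of the 17 immediate early genes was past 2-fold.

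The same pair of libraries was read in the other T cells, without mixed barcodes. Lef1 had a ratio of 0.196 (0.0706 to 0.438) in CD4 cells, 0.470 (0.331 to 0.651) in CD8 cells and 0.457 (0.354 to 0.584) in cells with neither co-receptor. Ifi27l2a had 0.395, 0.315 and 0.317, and Bhlhe40 4.51 (3.32 to 6.12), 1.90 (1.30 to 2.74) and 2.19 (1.84 to 2.61). The direction was thus the same in the 3 classes for these genes, and the limits of CD4 cells lay apart from those of the other classes for Bhlhe40, against both. Bhlhe40 was named for its high ratio in CD4 cells, and a smaller ratio in the other classes can follow from that choice. These differences between classes were not tested.

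**Figure D5:**
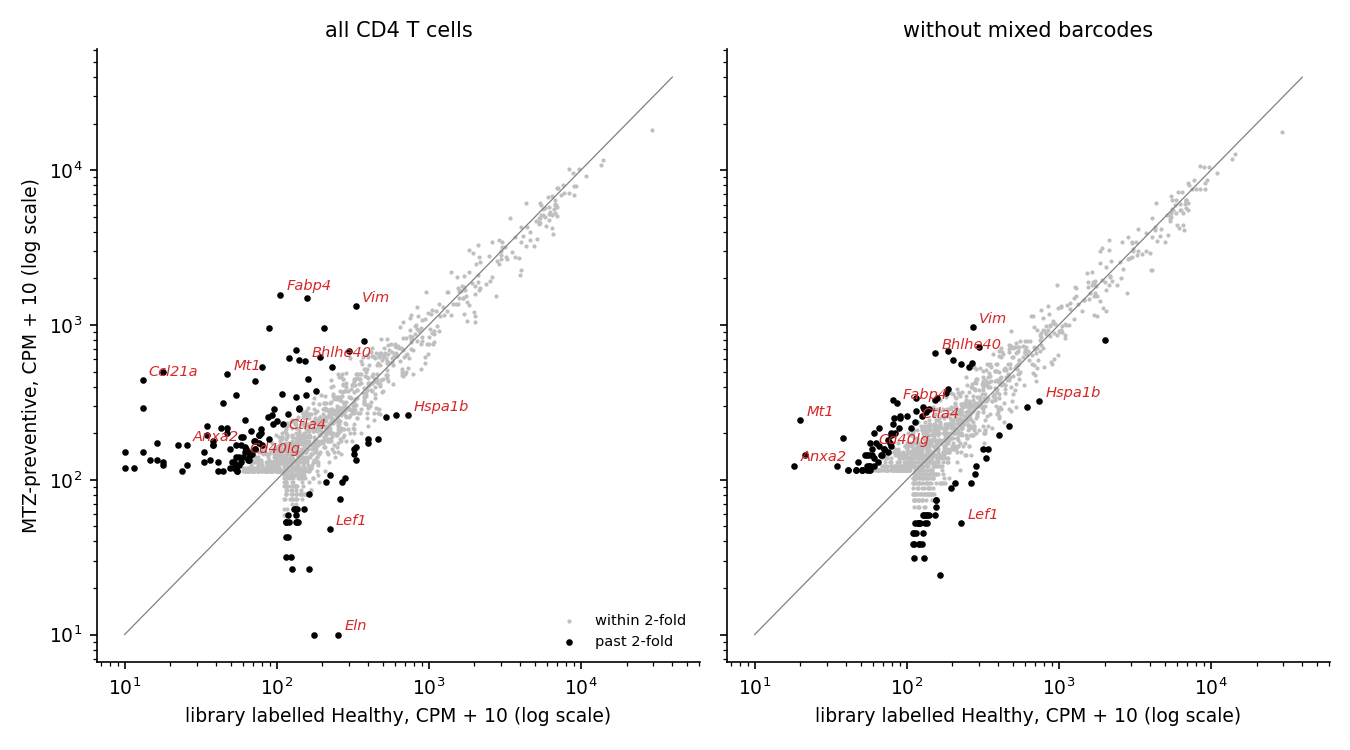
Each point is a gene that reached 100 CPM in one of the libraries, placed by its level in CD4 T cells of the library labelled Healthy (horizontal) and of MTZ-preventive (vertical), both on log scales with 10 CPM added, for all cells on the left and without mixed barcodes on the right. Black points differed by more than 2-fold. Lef1 and Hspa1b lay below the diagonal and Bhlhe40 and Mt1 above it in both panels, while Ccl21a and Eln were shown on the left alone.

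The helper subsets were read by lists. At least 1 gene of the Th1 list was seen in 47.3% (40.3 to 54.4) of CD4 cells of the library labelled Healthy, 3 of 6 of the MTZ-treated and 49.2% (36.1 to 62.3) of the MTZ-preventive library. CD8 cells had it in 57.4% and 46.7% in the first and last libraries. Tnf gave 133 of 189 Th1 UMIs in CD4 cells of the first. Ifng, the signature cytokine of this subset, had 11 UMIs in 6 cells and 11 in 5 cells. The Th2 list was seen in 14.3% and 13.1% of CD4 and 6.57% and 8.21% of CD8 cells, with Gata3 giving 37 of 38 and 12 of 13 UMIs and Il4, Il5 and Il13 at 0 in both. For the follicular helper list the shares were 32.0% and 32.8%, against 26.1% and 14.4% of CD8 cells. The Th17 list was seen in 9.85% (6.12 to 14.8) and 29.5% (18.5 to 42.6) of CD4 cells and in 4.88% (3.29 to 6.94) and 12.8% (8.47 to 18.3) of CD8 cells, so it was higher in the MTZ-preventive library in both classes. In CD4 cells Rora gave 31 of 43 and 29 of 54 UMIs, and fibroblasts carried Rora in 331 of 1837 and 556 of 4337 cells. Il17a, the cytokine of that subset, had 7 UMIs in 1 cell and 13 UMIs in 2 cells. These shares are at full depth, and CD4 cells of the library labelled Healthy were the deeper.

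T cell receptor sequences came from separate libraries, but the rule was not independent of them, since it read Trac and Trbc2, the constant parts of the same transcripts. B cells and fibroblasts were chosen without a UMI of these genes, so their low shares are a description and no check of the members. A productive contig of either chain was found for 142 of 203 CD4 cells (70.0%, 63.1 to 76.2) of the library labelled Healthy, 3 of 6 of the MTZ-treated and 36 of 61 (59.0%, 45.7 to 71.4) of the MTZ-preventive library, against 0 of 3017, 73 and 1050 B cells and 1 of 1837, 0 of 2940 and 1 of 4337 fibroblasts. A beta chain (TRB) was found for 64.5%, 33.3% and 57.4% of CD4 cells, and for 51.2% and 43.6% of CD8 cells in the first and last libraries. The CD4 cells held 134, 2 and 36 distinct TRB chains, with a median length of 42, 46.5 and 40.5 bases of the third complementarity-determining region (CDR3, the stretch that meets the peptide). TRBV3 was the most frequent V gene in the library labelled Healthy, in 20 of 131 cells (15.3%, 9.58 to 22.6), and was seen in 6 of 35 (17.1%) of the MTZ-preventive library. No chain was found in 2 libraries.

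Only 4 of these chains were found in more than 1 barcode of a library, and 1 in more than 1 CD4 cell. They are shown since they are the whole of the repetition among CD4 cells. The sequences run 5′ to 3′ over the CDR3 as deposited, with the first codon (the conserved cysteine) and the last (the conserved phenylalanine) in capitals.
TRBV15 and TRBJ2-7, library labelled Healthy: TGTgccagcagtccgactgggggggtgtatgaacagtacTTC
TRBV13-1 and TRBJ1-4, MTZ-preventive: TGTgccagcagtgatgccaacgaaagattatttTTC
TRAV13D-2 and TRAJ9, the alpha chain of the same cells: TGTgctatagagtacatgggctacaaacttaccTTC
TRBV20 and TRBJ1-1, MTZ-preventive: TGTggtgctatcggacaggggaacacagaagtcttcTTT
TRBV3 and TRBJ2-2, MTZ-preventive: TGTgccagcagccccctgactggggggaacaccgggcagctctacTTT

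The TRBV13-1 chain was held by 2 CD4 cells of the MTZ-preventive library with the same alpha chain, at 14 and 21 TRB UMIs. The cells had 5614 and 10799 UMIs, the second was a mixed barcode, and their barcodes differed at 9 bases. The TRBV15 chain was held by a CD4 and a CD8 cell whose alpha chains differed. The TRBV20 chain was held by a CD4 cell, a T cell with neither co-receptor and a different alpha chain, and a barcode that was not a T cell by the rule. The TRBV3 chain was held by a CD4 cell and a cell with neither co-receptor that shared its alpha chain, TRAV14-3 with TRAJ40. Of CD4 cells with a TRB chain, 0 of 131 in the library labelled Healthy and 2 of 35 (5.71%, upper limit 19.2) in the MTZ-preventive library thus shared it with another CD4 cell, and the limits overlapped (Clopper-Pearson, up to 2.78% in the former). No CD4 cell had the TRAV11 with TRAJ18 chain of invariant natural killer T cells or the TRAV1 with TRAJ33 chain of mucosal-associated invariant T cells.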

How the data were processed

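The authors counted UMIs with Cell Ranger (the matrix headers name cellranger 5.0.0), with STAR and mm10 named in the submitters' processing notes, and deposited raw counts per gene and barcode. The deposited receptor files list productive contigs with their UMI counts. Each condition has 1 library of each kind. Members and gene lists were chosen with earlier results of these data known. The named genes were those of the lists, the 10 largest called increases and decreases in CD4 against CD8 cells with the same direction in both libraries, and the 8 highest and 8 lowest by the confidence limit of the ratio between libraries nearest to 1 (at least 20 UMIs in both together), apart from genes of the membership rule, receptor segments, mitochondrial genes and unnamed models.

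Counts were summed per library and class. Kept cells with no UMI of the 6 T cell genes were called B cells with at least 3 genes of a B cell list, and fibroblasts with at least 3 of Col1a1, Col1a2, Col3a1, Dcn, Lum and Pdgfra and none of Ptprc and Cd79a. Shares have Clopper-Pearson limits, CPM exact Poisson limits and ratios exact conditional binomial limits, at 95%. They cover counting error only, and a count of 0 allows up to 3. The class contrast used edgeR 4.0.16 (glmQLFit, glmQLFTest, TMM, filterByExpr) with Benjamini-Hochberg adjustment, and DESeq2 1.42.0 as an alternative, in R 4.3.3. A gene could pass filterByExpr, or the limit of 100 CPM, on its level in a single class or library. The scripts were tested on simulated data. Doublets were called per library from 2 simulated doublets per cell, with the top 0.8% per 1000 cells marked (1218, 39, 416 and 2130 barcodes), and were kept in the main results. Symbols on several lines (38) were summed. Gene positions are from RefSeq, GRCm38.p6. Python 3.11.15, numpy 2.4.6, scipy 1.17.1 and pandas 2.3.3 were used. Some listed genes, and a share that used 1 of them, are not reported here.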

Additional observations from a re-analysis of the deposited data

Results flagged for a closer look

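B cell receptor contigs, which no comparison of the CD4 cells used, were found on 2 of 61 CD4 barcodes of the MTZ-preventive library (3.28%, limits 0.400 to 11.3) and on 0 of 203 and 0 of 6 in the others. One carried an IGK contig with 3 UMIs, and the other IGH and IGK contigs with 9 UMIs beside 1 T cell receptor contig. Fibroblasts of that library had 75 of 4337 (1.73%) and CD8 cells 1 of 195.

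For 3 genes the ratio of the MTZ-preventive library to the library labelled Healthy, without mixed barcodes, pointed one way in CD4 cells and the other way in another class of T cell. S1pr1 had 3.15 (1.65 to 5.92) in CD4 cells, 0.331 (0.117 to 0.755) in CD8 cells and 0.546 (0.362 to 0.803) in cells with neither co-receptor. Igfbp4 had 0.735 (0.537 to 0.989) in CD4, 1.46 (1.21 to 1.75) in CD8 and 1.19 (1.05 to 1.35) in the remaining class. Cd74 had 4.51 (2.90 to 7.02) in CD4 and 0.695 (0.572 to 0.841) in cells with neither, and 1.77 in CD8 cells. The CD4 value came from 45 UMIs in 6 MTZ-preventive cells and 43 UMIs in 29 cells of the library labelled Healthy, and with the mixed barcodes it was 1.55 (1.08 to 2.20), from 48 UMIs in 8 cells, 19 of them in 1, and 108 in 34 cells, 45 of them in 1. S1pr1 was seen in 6.97% and 10.8% of fibroblasts, and Cd74 in 46.3% and 45.4%. With 1 library per condition the differences between classes were not tested.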

How the results depend on the processing

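The counts rest on 1 library per condition, on the library labelled Healthy for every comparison of levels, and on 1 Cd4 UMI for most members. The number of CD4 cells seen may therefore depend on depth. With more than 500 UMIs and less than 20% mitochondrial UMIs the share was 0.944% in the library labelled Healthy and 0.265% in the MTZ-preventive library. Requiring 4 T cell genes gave 1.27% and 0.245%, and a Foxp3 share of 0 of 40 in the latter. Requiring 2 Cd4 UMIs gave shares of 0.251%, 0% (MTZ-treated) and 0.0429%, CD4 parts of CD4 plus CD8 cells of 4.96%, 0% and 3.47%, and Foxp3 in 0 of 31 and 0 of 7 cells. Set against cells other than B and T cells, CD4 cells came to 2.71% in the library labelled Healthy. Thinning before the co-receptors were read gave a CD4 part of 18.2% there. Contigs with at least 3 UMIs left a receptor in 60.6%, and without mixed barcodes 0% of MTZ-preventive cells repeated a TRB chain.

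The number of genes past 2-fold was 40 higher and 16 lower at a minimum of 200 CPM, 164 and 105 with totals free of mitochondrial, ribosomal and hemoglobin genes, and 94 lower with TMM factors. Lef1 kept its direction in all 7 alternatives. Ccl21a reversed to −0.22 without mixed barcodes.

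For CD4 against CD8 cells, genes called higher were 5 with DESeq2, 66 without the filter, 1 without the library block, 29 without doublets and 32 with the MTZ-treated library added. Those called lower were 45, 5 without the block, 40 without doublets, 109 without mixed barcodes and 89 with the added library. Leaving out each library of the 3-library fit gave 0 to 113 higher and 4 to 188 lower. Without the library labelled Healthy 0 were higher and 4 lower of 1286 tested (41 at an unadjusted p under 0.05, with 5 CD4 cells or more per library), and without MTZ-preventive 8 and 25. S100a6 reversed to 1.04 without mixed barcodes, 0.85 without the library labelled Healthy and 0.95 without MTZ-preventive. Anxa2 reversed to 1.03, 0.36 and 0.073 in the same settings, Crip1 to 0.015 without the library labelled Healthy, and Ifi27l2a to −0.16 without MTZ-preventive. The cause was not tested. With only 4 and 3 Foxp3 cells, the comparison of CD4 cells with and without Foxp3 and its alternatives were not run. A 2-library fit with 1 library left out has no residual degrees of freedom. No paired analysis was possible because each condition had 1 library, and the library block above is the pairing within the class contrast.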
